A study of Homo sapiens with 4 samples.

Results

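The genomic neighbourhoods of 10 inflammatory cytokine and chemokine genes were examined for binding of MTF-1, the metal-response element transcription factor. The genes were IL6, LIF, IL1A, IL1B, CSF2, CXCL8, CXCL1, CXCL2, CXCL3 and CCL2, 10 of the 20033 protein-coding genes of GENCODE 44. They are grouped by the function of their products, were picked with earlier results of these data known, and each was described by every MTF-1 peak that overlapped the gene or the 20 kb on either side of it. The 10 windows did not overlap each other and held 38 peaks of the control list, out of 69299, and 37 peaks of the cadmium list, out of 60130.

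MTF-1 was profiled by CUT&RUN, in which an antibody tethers a nuclease to a DNA-binding protein and the DNA released around it is sequenced, in MDA-MB-231, an established human breast cancer cell line. The control group was 2 libraries from untreated cells, and the cadmium group was 2 libraries from the same line selected by serial passaging in CdSO4 and kept at 10 µM. Reads of the libraries of each group were merged before peaks were called, so each condition is 1 list of positions with no height, read depth or spread between replicates, and no test between conditions could be made. Every difference given is a difference between those 2 lists, and cadmium cannot be told apart from selection of the cadmium-grown line or from a difference in sequencing depth.

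MTF-1 is a zinc-finger factor that activates metallothionein and other metal-handling genes through short metal response elements (MREs). The cytokine and chemokine genes examined here are classical inducible genes, switched on in many epithelial and tumour cells by nuclear factor κB (NF-κB) together with AP-1 (FOS and JUN dimers) and C/EBP factors. Between them, their products recruit neutrophils and monocytes, amplify inflammation and, for IL6 and LIF, signal through STAT3.

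The sequences directly upstream of the start sites are shown first, because the peaks described afterwards lie over them. Of the 10 genes, 8 had a promoter sequence in the RefSeq table used (GRCh38.p14), all but LIF and CCL2, and in each of the 8 its start was the same base as the GENCODE start. In the 250 bases upstream, on both strands, 5 motifs were searched. They were the κB consensus or the shorter form GGAANTTCC, AP-1 (TGACTCA or TGAGTCA), the MRE core (TGCACNC or TGCGCNC), the forkhead strings (GTAAACA or GTAAATA, with ATAAACA or ATAAATA also taken), and C/EBP (TTGCNNAA), with overlapping matches of 1 motif counted as 1 site. A match is a description of the letters only.

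CXCL1, CXCL2 and CXCL3 are printed in full on the coding strand, with the κB match in capitals, because the same 11 letters stand at almost the same distance from all 3 start sites. The stretches are chr4:73869143-73869392 on the plus strand for CXCL1, chr4:74099196-74099445 on the minus strand for CXCL2 and chr4:74038690-74038939 on the minus strand for CXCL3.
CXCL1: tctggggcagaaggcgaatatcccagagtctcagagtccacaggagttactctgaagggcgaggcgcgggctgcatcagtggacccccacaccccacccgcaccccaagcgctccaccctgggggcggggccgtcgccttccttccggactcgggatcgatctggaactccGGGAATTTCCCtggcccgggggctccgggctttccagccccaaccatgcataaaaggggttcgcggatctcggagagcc
CXCL2: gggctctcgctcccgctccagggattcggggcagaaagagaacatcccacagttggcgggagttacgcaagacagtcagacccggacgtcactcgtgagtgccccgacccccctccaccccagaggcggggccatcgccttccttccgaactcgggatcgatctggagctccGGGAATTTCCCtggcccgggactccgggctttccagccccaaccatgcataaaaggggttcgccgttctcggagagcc
CXCL3: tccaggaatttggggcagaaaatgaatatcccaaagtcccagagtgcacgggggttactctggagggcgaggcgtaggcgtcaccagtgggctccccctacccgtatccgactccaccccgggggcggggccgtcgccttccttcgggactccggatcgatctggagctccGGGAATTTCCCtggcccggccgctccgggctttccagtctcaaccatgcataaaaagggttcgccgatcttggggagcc

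In global alignments of these 250 bases, CXCL1 and CXCL3 were identical at 81.4% of aligned columns, CXCL2 and CXCL3 at 73.3% and CXCL1 and CXCL2 at 70.4%. CXCL8, the other chemokine of the cluster, was identical to them at 42.0 to 45.4%. CXCL8 had 2 κB matches, of which 1, GGAGCACTCC centred 12 bp upstream of the start, is not printed. The other, the AP-1 match of CXCL8 and the κB match of IL6 are shown as 30-base stretches, with the match in capitals. They are shown because the peaks of both lists covered them. The positions are chr4:73740467-73740496 and chr4:73740420-73740449 for CXCL8 and chr7:22727117-22727146 for IL6, all on the plus strand.
CXCL8 κB: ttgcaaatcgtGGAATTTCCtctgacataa
CXCL8 AP-1: taggaagtgtgaTGACTCAggtttgccctg
IL6 κB: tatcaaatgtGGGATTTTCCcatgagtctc

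The upstream stretch of IL1A is shown because the peak over it was found in the control list only. It is chr2:112784494-112784743 on the minus strand, with an AP-1 match in capitals next to the start site.
IL1A: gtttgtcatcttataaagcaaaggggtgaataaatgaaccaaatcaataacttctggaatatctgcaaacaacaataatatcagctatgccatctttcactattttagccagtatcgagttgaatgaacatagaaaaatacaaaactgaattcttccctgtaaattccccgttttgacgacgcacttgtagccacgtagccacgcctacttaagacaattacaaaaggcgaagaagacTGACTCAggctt

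A κB match was present upstream of 5 of the 8 genes (IL6, CXCL8, CXCL1, CXCL2 and CXCL3), against 13.6% of 15345 protein-coding promoters of the same length. The upstream stretches of CXCL1, CXCL2 and CXCL3 resemble each other (70.4 to 81.4% identical), so their matches are not independent. The genes are also known to be switched on by NF-κB, so a share above that of all promoters is no separate finding. AP-1 was matched in 2 of the 8 (IL1A and CXCL8), against 3.17%, and C/EBP in 3 (IL6, IL1B and CXCL2), against 7.25%. The MRE core was matched in 2 (CXCL8 and CXCL3), against 29.5%, and a forkhead string in 1 (IL6), against 9.49%. The G and C content of these stretches ranged from 37.6% in IL1A and CXCL8 to 65.6% in CXCL1, and the median of all promoters was 62.4%.

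Across the 10 windows, control peaks covered 83256 bases and cadmium peaks 64228 bases, a ratio of 0.771, beside 0.697 for the complete lists. The direction of this difference rested on LIF, without which the ratio was 0.662. Of the control-covered bases 69.3% were also covered in cadmium, 25599 bases were covered in the control list only and 6571 in the cadmium list only. IL6, IL1A, IL1B, CSF2, CXCL8, CXCL1, CXCL2 and CXCL3 had fewer bases under peaks in cadmium, LIF had more, and CCL2 had no peak in either list. Among all protein-coding genes 66.3% had fewer and 21.5% more. The median share of a window covered by peaks was 14.0% in control and 8.31% in cadmium over the 10 genes, and 7.04% and 5.14% over all genes. The median ratio of covered bases was 0.68 over the 9 genes with peaks and 0.75 over all genes with control peaks. Coverage also differed with gene length. Over the 5334 protein-coding genes no longer than IL1A, the longest of the 10, the medians were 10.3% and 7.95%, so the cadmium value of the 10 genes was close to that of genes of like length and the control value was higher.

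**Figure D1:**
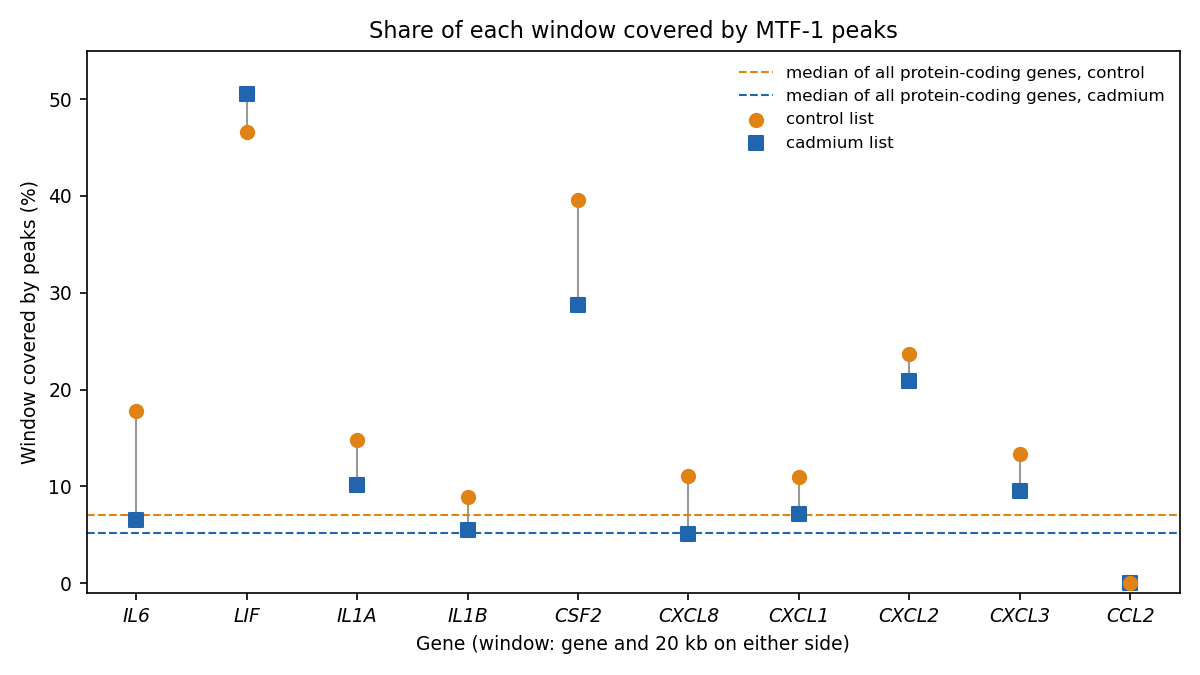
Share of each gene's window (gene and 20 kb on either side) covered by MTF-1 peaks, in percent, in the control list (circles) and the cadmium list (squares), with 1 value per list and no replicate error. The dashed lines are the medians over all protein-coding genes, 7.04% in control and 5.14% in cadmium, and LIF is the only gene whose cadmium value lies above its control value.

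At least 1 control peak was present at 9 of the 10 genes, against 88.7% of all protein-coding genes, and at least 1 cadmium peak at the same 9, against 88.2%. Peaks that shared no base with the other list were a smaller share than in the complete lists. The control peaks lost in cadmium were 4 of 38, 10.5%, beside 27.9% of the complete control list and 25.1% of the control peaks within 20 kb of any protein-coding gene. The gained peaks were 2 of 37, 5.41%, beside 15.1% and 13.6%. The size of the lost share depended on the definition. Under a rule that asked for 50% of the bases of a peak to be shared, 12 of 38 control peaks were lost. This was 31.6%, beside 46.2% of the complete list. When peaks under 1000 bp were dropped from both lists, 11 of 28 control peaks overlapped no remaining cadmium peak (39.3%, beside 42.3%). That count includes wide control peaks whose cadmium partners were narrower than 1000 bp. Of the 4 peaks that shared no base, only those at IL1B (1399 bp) and CXCL3 (1599 bp) were at least 1000 bp wide. Peaks at the 10 genes had a median width of 1799 bp in control, against 1399 bp for the complete list, and 999 bp in cadmium, the same as the complete list. A lost peak was present at IL6, IL1A, IL1B and CXCL3, 4 of 10 genes against 46% of all genes, and a gained peak at LIF and IL1B, 2 of 10 against 31.1%. Among genes no longer than IL1A these shares were 28.9% and 22.8%, so the count of genes with a lost peak lay below the share of all genes and above that of short genes.

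**Figure D2:**
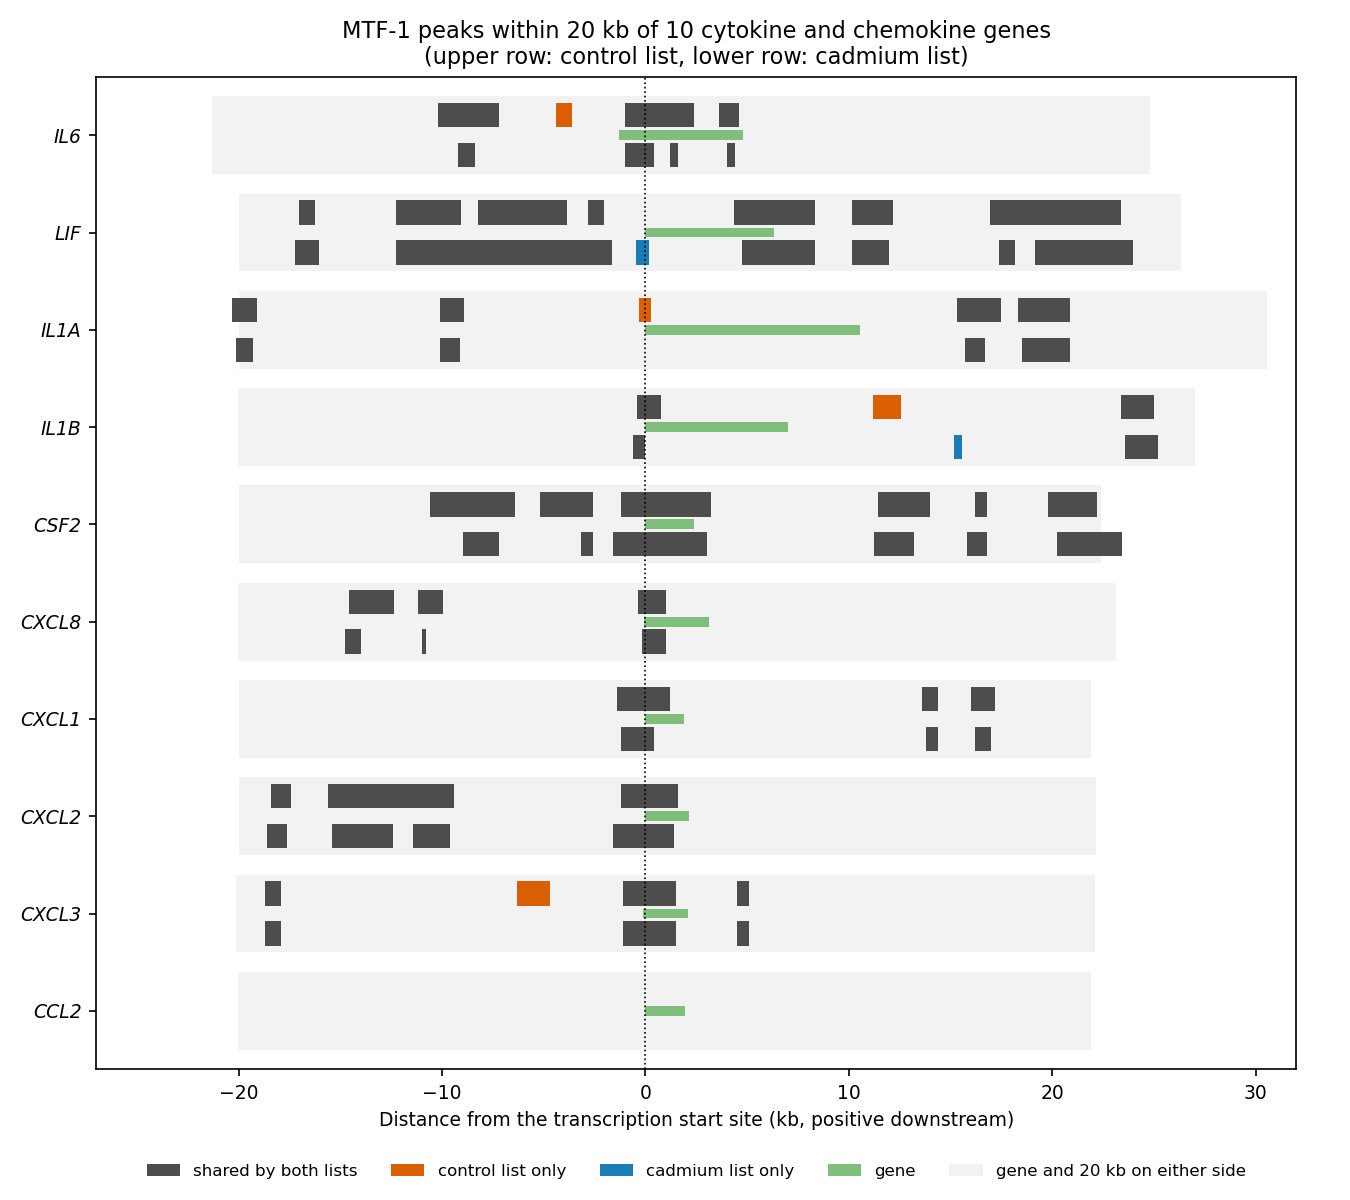
Position of every MTF-1 peak within 20 kb of the 10 genes, as distance from the transcription start site in kb with downstream to the right. For each gene the upper row is the control list and the lower row the cadmium list, with shared peaks in grey, the 4 control-only peaks in orange, the 2 cadmium-only peaks in blue and the gene in green.

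A start site was counted as bound when any base of a peak lay within 1 kb of the start of the gene's canonical transcript. Both lists had such a peak at 7 of the 10 genes (IL6, IL1B, CSF2, CXCL8, CXCL1, CXCL2 and CXCL3), against 65.5% of all protein-coding genes. Only the control list had one at IL1A, a pattern held by 3.08% of all genes. Only the cadmium list had one at LIF, a pattern held by 1.32%. Neither had one at CCL2, as at 30.1% of all genes. Both of the calls in a single list rested on peaks of 599 bp. With peaks of at least 1000 bp only, IL1A and LIF had a start-site peak in neither list, and IL1B had one in control only. Among the 7 genes bound in both lists the start-site peak was narrower in cadmium at 4 (IL6, IL1B, CXCL8 and CXCL1), of the same width at CXCL3 and wider at 2 (CSF2 and CXCL2). For all 13131 genes bound in both lists the shares were 61.2% narrower, 13.0% equal and 25.8% wider.

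IL6 encodes interleukin-6, a cytokine that signals through STAT3 and is secreted by many tumour cells. Its locus (ENSG00000136244.12, chr7:22725884-22732002, plus strand, hg38) had 4 peaks in each list, covering 17.8% of the window in control and 6.5% in cadmium. The ratio of covered bases, 0.366 (2996 over 8196), was the lowest of the 9 genes with peaks. The control peak at the start site spanned 3399 bp, chr7:22726201-22729599, from 999 bp upstream to 2399 bp downstream of the start, and also overlapped the antisense transcript IL6-AS1 and the neighbouring gene STEAP1B. In cadmium the same stretch held a peak of 1399 bp with the same upstream edge, chr7:22726201-22727599, and a separate peak of 399 bp over an exon at chr7:22728401-22728799. All peaks over the gene together covered 71.9% of its body in control and 35.9% in cadmium. At the start-site peak, what was no longer covered was thus the downstream side, while the upstream edge stayed in the same 200 bp bin.

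The κB match printed above, centred 68 bp upstream of the IL6 start, and an AP-1 match centred 280 bp upstream lay under the peaks of both lists. A κB match centred 615 bp downstream lay under the control peak only. The lost peak of the locus, 799 bp at chr7:22722801-22723599 in an intron of STEAP1B, had its centre 4000 bp upstream of the IL6 start. It held 2 κB matches, 1 of which, on the plus strand at chr7:22722968-22722997, has the same 10 letters as the κB match of the promoter and is printed for that reason with the match in capitals.
IL6 lost peak κB: caagatgcctGGGATTTTCCacttcagcag

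The other 2 control peaks at IL6 were also narrower in cadmium. A peak in a STEAP1B intron centred 8700 bp upstream of the start was 2999 bp in control, and the cadmium peak inside it was 799 bp. The peak at the 3′ part of the gene, chr7:22730801-22731799 in control, went from 999 to 399 bp. All 2996 bases covered in cadmium were also covered in control.

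LIF encodes leukaemia inhibitory factor, an interleukin-6 family cytokine that also signals through STAT3, and its locus (ENSG00000128342.5, chr22:30240453-30246759, minus strand) was the most densely covered of the 10. Peaks covered 46.6% of the window in control and 50.5% in cadmium (21593 and 23393 bases, ratio 1.08), with 7 peaks in each list. These levels were higher than in 95.7% of protein-coding genes in control and in 98.4% in cadmium. LIF was also the locus with the most cadmium-only sequence, 3801 bases of the 6571 found over all 10 windows, against 2001 control-only bases.

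The start site of LIF lay under a gained peak. The cadmium peak, chr22:30246601-30247199, was 599 bp wide, reached from 440 bp upstream to 158 bp downstream of the start, and overlapped the antisense transcript LIF-AS2. It held an AP-1 match centred 360 bp upstream of the start, a forkhead match and no κB or MRE core match. The nearest control peak, of 799 bp, had its edge 2042 bp upstream of the start, so LIF counted as bound in both lists when 3 kb was allowed. Further upstream, 3 control peaks of 799, 4399 and 3199 bp lay under 1 cadmium peak of 10599 bp, chr22:30248401-30258999, the widest peak at any of the 10 genes. The cadmium peak thus spanned the control peaks and the breaks between them. The pattern was the opposite on the downstream side of the gene, where a control peak of 6399 bp was overlapped by cadmium peaks of 4799 and 799 bp.

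The neighbouring gene OSM encodes oncostatin M, another cytokine of the interleukin-6 family. Its window shares sequence with that of LIF and held 10046 bases under peaks in control and 13247 in cadmium, with no peak at its own start site in either list.

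IL1A and IL1B encode interleukin-1α and interleukin-1β, 2 ligands of the same receptor, and lie in 1 cluster on chromosome 2. IL1A (ENSG00000115008.6, chr2:112773925-112784493, minus strand) had 5 control peaks and 4 cadmium peaks, covering 14.8% and 10.1% of the window. Its start-site peak, 599 bp at chr2:112784201-112784799, was found in the control list only, and the nearest cadmium peak was 9108 bp away. The lost peak reached from 306 bp upstream to 292 bp downstream of the start and held 2 AP-1 matches, centred 9 bp upstream and 41 bp downstream, and no κB, MRE core, forkhead or C/EBP match. The 4 other peaks were shared, none lay over the gene, and each was narrower in cadmium. The widest of these, 2599 bp in control and 2399 bp in cadmium, contained a transcript start of the neighbouring gene CKAP2L.

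At IL1B (ENSG00000125538.12, chr2:112829751-112836816, minus strand) each list had 3 peaks, covering 8.92% of the window in control and 5.52% in cadmium. The start-site peak was 1199 bp in control, chr2:112836001-112837199, and spanned the start from 420 bp upstream to 778 bp downstream. In cadmium it was 599 bp, chr2:112836801-112837399, and its downstream edge lay 22 bp upstream of the start, so the start itself was no longer under the peak. A κB match centred 408 bp upstream lay under both. The control peak and the cadmium peak shared 399 bases.

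IL1B was the only gene of the 10 with both a lost and a gained peak. The lost peak, 1399 bp at chr2:112824201-112825599, contained the start of the lncRNA ENSG00000287937, downstream of IL1B. The gained peak, 399 bp at chr2:112821201-112821599, lay in an intron of the same lncRNA. It held 2 AP-1 matches and 1 MRE core match, and no κB, forkhead or C/EBP match. The central 200 bases of the gained peak are printed on the plus strand (chr2:112821300-112821499), with both AP-1 matches in capitals, because the stretch was covered in cadmium only.
IL1B gained peak: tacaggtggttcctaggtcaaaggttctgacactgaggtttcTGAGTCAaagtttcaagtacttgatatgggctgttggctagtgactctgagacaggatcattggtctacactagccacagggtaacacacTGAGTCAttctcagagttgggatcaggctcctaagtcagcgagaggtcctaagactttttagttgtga

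CSF2 encodes GM-CSF, a growth factor of granulocytes and macrophages. The gene (ENSG00000164400.6, chr5:132073789-132076170, plus strand) lay entirely under 1 peak in both lists, 4399 bp in control (chr5:132072601-132076999) and 4599 bp in cadmium (chr5:132072201-132076799). These were the widest start-site peaks of the 10 genes. The window held 6 peaks in each list, all shared, and was covered to 39.6% in control and 28.7% in cadmium. The start-site peak thus differed by a single bin in width, while 2 upstream peaks were narrower in cadmium, from 4199 to 1799 bp and from 2599 to 599 bp. Downstream, the peaks were 2599, 599 and 2399 bp in control and 1999, 999 and 3199 bp in cadmium. The 250 bases upstream of CSF2 held no match to any of the 5 motifs. IL3, the neighbouring gene for interleukin-3, had no peak at its start in either list.

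CXCL8 encodes interleukin-8, a neutrophil attractant, and CXCL1, CXCL2 and CXCL3 encode the GRO chemokines, which bind the same receptor CXCR2. All 4 lie in the CXC cluster of chromosome 4, and all 4 had a start-site peak in both lists. At CXCL8 (ENSG00000169429.12, chr4:73740519-73743716, plus strand) the start-site peak was 1399 bp in control and 1199 bp in cadmium. Both ended 1030 bp downstream of the start, and the upstream reach was 368 bp in control and 168 bp in cadmium. This left the AP-1 match at 134 bp and the κB matches at 87 and 12 bp upstream under both peaks. The 2 other peaks of the window, both upstream, narrowed more. Their widths were 2199 and 1199 bp in control and 799 and 199 bp in cadmium, the last being a single bin. The ratio of covered bases at CXCL8 was 0.458 (2197 over 4797), the second lowest after IL6.

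CXCL1 (ENSG00000163739.5, chr4:73869393-73871308, plus strand) had 3 shared peaks, covering 11.0% of its window in control and 7.15% in cadmium. Its start-site peak was 2599 bp in control and 1599 bp in cadmium, with 1206 bp and 406 bp downstream of the start. The upstream reach was 1392 and 1192 bp. As at IL6, most of the difference was thus over the gene body, of which the peak covered 63.0% in control and 21.2% in cadmium. CXCL2 (ENSG00000081041.9, chr4:74097040-74099196, minus strand) differed less. Its start-site peak was 2799 bp in control and 2999 bp in cadmium, and its window was covered to 23.7% and 20.9%, a ratio of 0.88. A control peak of 6199 bp containing a transcript start of the neighbouring gene MTHFD2L was overlapped in cadmium by 2 peaks of 1799 and 2999 bp.

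At CXCL3 (ENSG00000163734.4, chr4:74036589-74038807, minus strand) the start-site peak, chr4:74037201-74039799, had the same edges in both lists. So did the 2 other shared peaks of the window, of 599 and 799 bp. These were the only peaks with identical edges at the 10 genes, 3 of 38 control peaks beside 10.6% of the complete control list. The fourth control peak, 1599 bp at chr4:74043401-74044999, was lost. Its centre lay 5511 bp upstream of the CXCL3 start, and it held 1 κB, 2 MRE core, 2 forkhead and 2 C/EBP matches. It also held an AP-1 match (chr4:74044102-74044131, plus strand) that is printed in capitals.
CXCL3 lost peak AP-1: ctaagaaaagttTGAGTCAtcataaaaact

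The κB matches of CXCL1, CXCL2 and CXCL3, centred 74, 73 and 74 bp upstream, lay under the peaks of both lists, so every κB match found upstream of the 5 genes stayed under a peak. The start-site peaks of these paralogues share sequence. The longest run of identical bases was 178 bp between CXCL2 and CXCL3, 55 bp between CXCL1 and CXCL3, 51 bp between CXCL1 and CXCL2 and 13 bp between CXCL1 and CXCL8. The run shared by CXCL2 and CXCL3 is longer than a sequencing read of this study, so reads inside it cannot be assigned to 1 of the 2 genes from their own bases, and the part this played in the 2 peaks was not tested.

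**Figure D3:**
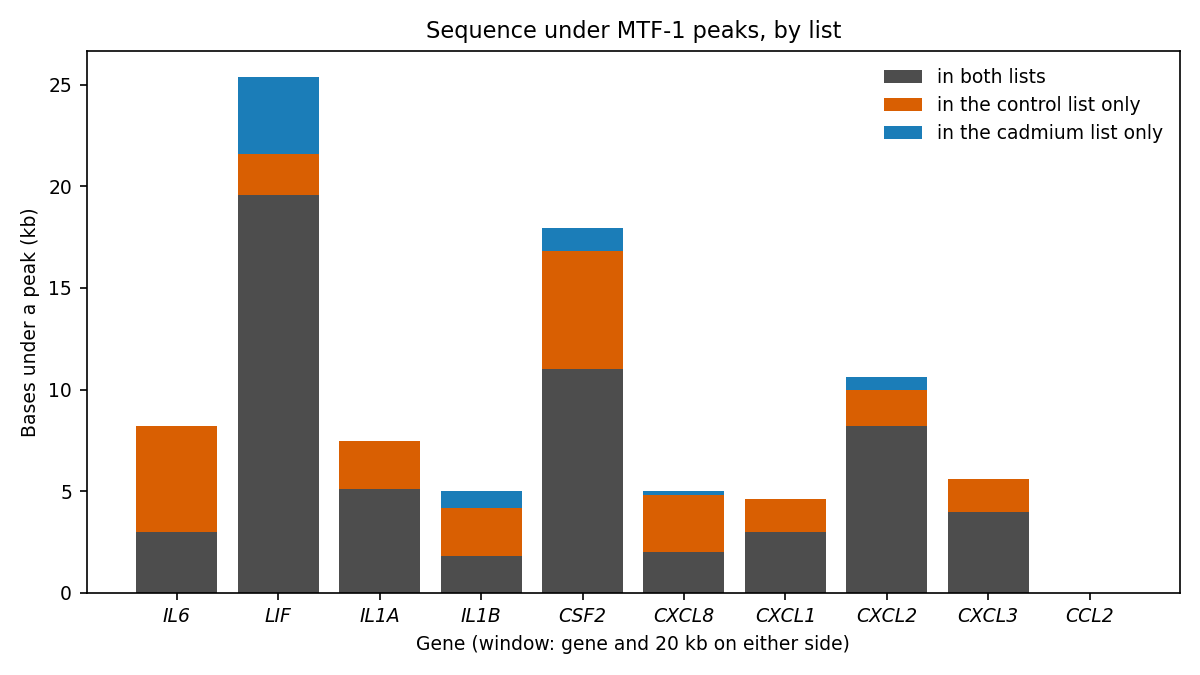
Bases under an MTF-1 peak within 20 kb of each gene, in kb, stacked as bases in both lists (grey), in the control list only (orange) and in the cadmium list only (blue), from a zero baseline. LIF carries 3801 cadmium-only bases, IL6 5200 and CSF2 5800 control-only bases, and CCL2 none.

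The cluster was also read as 1 stretch, from 20 kb before CXCL8 to 20 kb past CXCL2 (chr4:73720519-74119196). It held 22 control and 17 cadmium peaks, of which 6 control peaks were lost and no cadmium peak was gained, beside 27.9% lost and 15.1% gained in the complete lists. Covered bases were 34778 in control and 20783 in cadmium, a ratio of 0.598, and coverage went from 8.72% to 5.21%. Of the 6 lost peaks, 5 lay outside the windows of CXCL8, CXCL1, CXCL2 and CXCL3. They included a peak of 799 bp at the start of PF4, the platelet factor 4 gene, and a peak of 1399 bp over the pseudogene CXCL1P1. The cadmium list had a stretch of 88001 bp with no peak, chr4:73917600-74005600, in which lie the start sites of PF4, PPBP and CXCL5. The lost peaks at PF4 and CXCL1P1 fell inside this stretch, but not all of the lost peaks did. The shared peaks at its ends were also narrower in cadmium, 399 against 1599 bp and 799 against 1799 bp. The longest such stretch in control was 40201 bp, between CXCL3 and CXCL2.

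Among the genes of the cluster, the start sites of CXCL6, PF4V1, PPBP and CXCL5 had no peak in either list. CXCL5 and CXCL6 encode further neutrophil attractants, and PPBP and PF4 encode platelet chemokines. PPBP and CXCL5 had 3 control peaks and 1 cadmium peak within 20 kb, with 3597 and 799 covered bases in each of their overlapping windows.

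**Figure D4:**
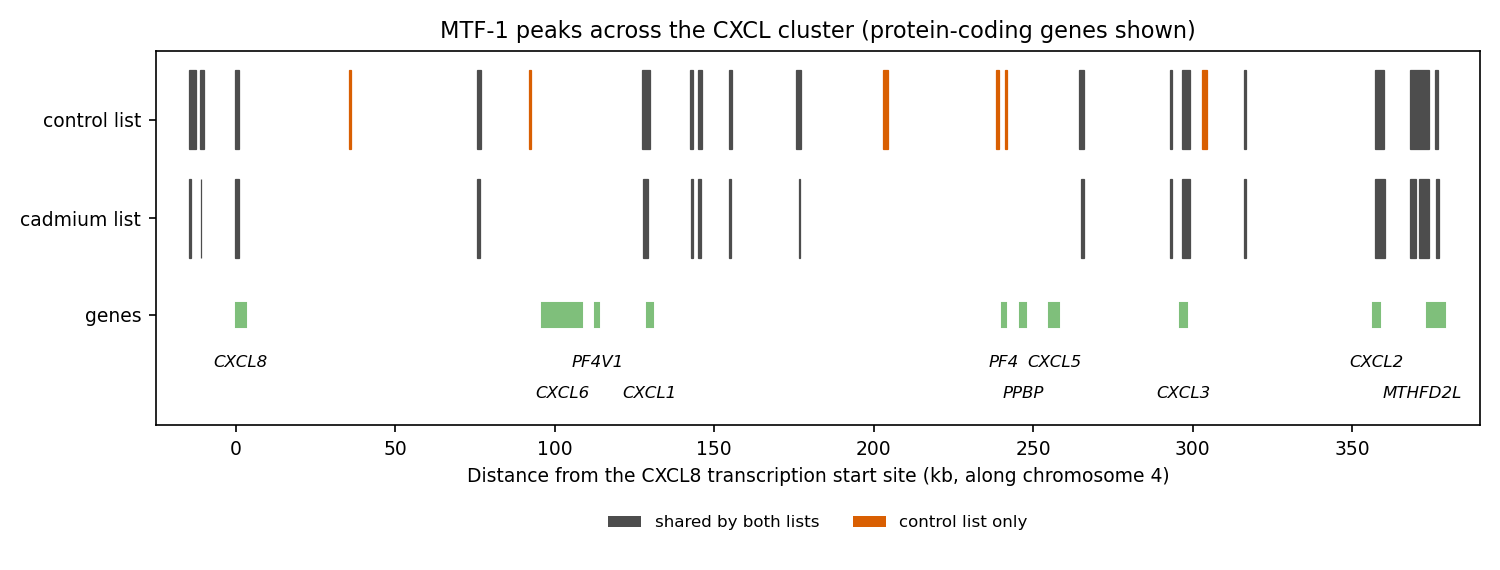
MTF-1 peaks across the chromosome 4 CXC cluster, as distance from the CXCL8 start in kb, with the control list above, the cadmium list below it and protein-coding genes in green. The gene MTHFD2L runs on past the right end. Shared peaks are grey and the 6 control-only peaks orange, and the longest stretch without a cadmium peak is 88001 bp.

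CCL2 encodes a monocyte attractant (ENSG00000108691.10, chr17:34255274-34257208, plus strand) and was the only gene of the 10 without a peak in either list, which says only that no peak was called in the merged reads. In control the stretch without any peak around it was 1675801 bp and held 7 complete protein-coding genes, CCL2, CCL7, CCL11, CCL8, CCL13, CCL1 and TMEM132E. In cadmium the stretch was 351401 bp. A gained peak of 1999 bp, chr17:34361601-34363599, ended it on the downstream side, 106316 bp from the CCL2 start. This peak lay over the start of CCL1, a chemokine gene of the same cluster, and also fell in the window of CCL13. A start site with no control peak within 100 kb was found for 5.46% of all protein-coding genes, and with no cadmium peak for 5.63%.

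AP-1 and κB matches were more frequent at these loci than in the complete lists, and the MRE core was less frequent. C/EBP and forkhead shares lay below that of the complete list in control and above it in cadmium. In the 500 bp around the centre, AP-1 was matched in 15 of 38 control peaks at the 10 genes (39.5%) and 15 of 37 cadmium peaks (40.5%), against 24.5% and 28.3% of all peaks of the lists. A κB match was present in 12 control peaks (31.6%) and 14 cadmium peaks (37.8%), against 17.9% and 19.6%. The MRE core was found in 26.3% and 18.9%, against 34.3% and 35.6%. Forkhead matches were found in 23.7% and 27.0%, against 30.5% and 25.5%. C/EBP was matched in 8 control peaks (21.1%) and 13 cadmium peaks (35.1%), against 21.5% and 19.7%, the widest gap between the lists of the 5 motifs. No lost or gained peak had a C/EBP match in this window, so the gap lay in shared peaks, whose centres differ between the lists. At CXCL2 the control peak of 6199 bp held 6 C/EBP matches, none of them in its central 500 bp. The 2 cadmium peaks over it held 3 each, with a match in both central windows. The gap therefore does not show that cadmium peaks held more C/EBP sites. These shares describe few peaks and were not tested. Both gained peaks held an AP-1 match, as did 2 of the 4 lost peaks. Of the control peaks, 12 contained a transcript start, 3 others an exon, 3 lay in introns and 20 were intergenic, and the cadmium peaks were spread as 11, 3, 3 and 20.

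The other genes around and within the pathway were read from 5 fixed lists. The 19 cluster neighbours were cytokine and chemokine family genes beside the 10, such as IL3, OSM, PF4 and IL1RN. Adjacent genes of other kinds were not on this list. Of these, MTHFD2L, which reaches into the CXCL2 window, had a start-site peak in both lists. A transcript start of CKAP2L, beside IL1A, also lay under a shared peak. None of the 19 had a start-site peak in both lists, PF4 had one in the control list, CCL1 had one in the cadmium list, and 17 had none, against the 7 of 10 bound in both lists described above. Median coverage of their windows was 4.36% in control and 2.72% in cadmium. The interleukin-36 genes, IL37, IL1F10 and IL1RN, which follow IL1B on chromosome 2, were among the 17.

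Of 20 further inflammatory cytokines and chemokines, 11 had a start-site peak in both lists and 9 in neither, and median coverage was 11.8% and 9.26%. CCL28, a mucosal chemokine, had 10392 covered bases in control and 798 in cadmium, with 6 lost peaks. AREG and EREG, which encode ligands of the epidermal growth factor receptor, had 14794 and 17144 bases in control and 6996 and 9545 in cadmium. IL11, which encodes another interleukin-6 family cytokine, had more in cadmium, 25658 against 22457 bases. The colony-stimulating factor genes CSF1 and CSF3 had 17393 and 16597 bases in control and 14393 and 12197 in cadmium, and both were bound at the start in both lists. The 3 genes of the list with no peak in their windows were CXCL10, CXCL12 and IL33, named here after their values were seen.

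Of 12 receptor genes, 7 had a start-site peak in both lists and 5 in neither, with a median ratio of covered bases of 1.05, and 5 genes had fewer and 5 more bases in cadmium. IL6R, which encodes the interleukin-6 receptor, had 19790 and 19787 bases, with 5801 in control only and 5798 in cadmium only. IL1R2, the decoy receptor of interleukin-1, had 2740 bases in control and 5537 in cadmium, with 3 gained peaks and no lost peak. IL1R1, its signalling receptor, had 11587 and 12787 bases. LIFR, the LIF receptor, had 22191 and 14592 bases, and IL1RAP, the shared interleukin-1 receptor chain, 10594 and 6594.

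All 17 genes of the NF-κB pathway had a start-site peak in both lists, against 65.5% of all genes. Their median coverage was 25.4% in control and 11.9% in cadmium, with a median ratio of 0.733. BIRC3, an inhibitor of apoptosis induced by NF-κB, had 22593 covered bases in control and 7396 in cadmium, and NFKBIA, the inhibitor IκBα, had 21794 and 15591. IKBKB, the kinase that acts on it, had 17188 and 11192. RELA, the p65 subunit, had more in cadmium, 27688 against 21996 bases. NFKB2 had 16319 and 15919 bases, and BCL3, a nuclear IκB protein, 21390 and 16789. All 8 genes of the list of mRNA decay factors and C/EBP and STAT regulators were also bound at the start in both lists, with median coverage of 35.5% and 30.1%. ZFP36 and ZFP36L1, which destabilise cytokine mRNAs, had 26196 and 27448 bases in control and 19996 and 19251 in cadmium. STAT3 had 29587 and 12531, CEBPB 18996 and 14568, and ZC3H12A, a ribonuclease that degrades IL6 mRNA, 10195 and 11595.

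**Figure D5:**
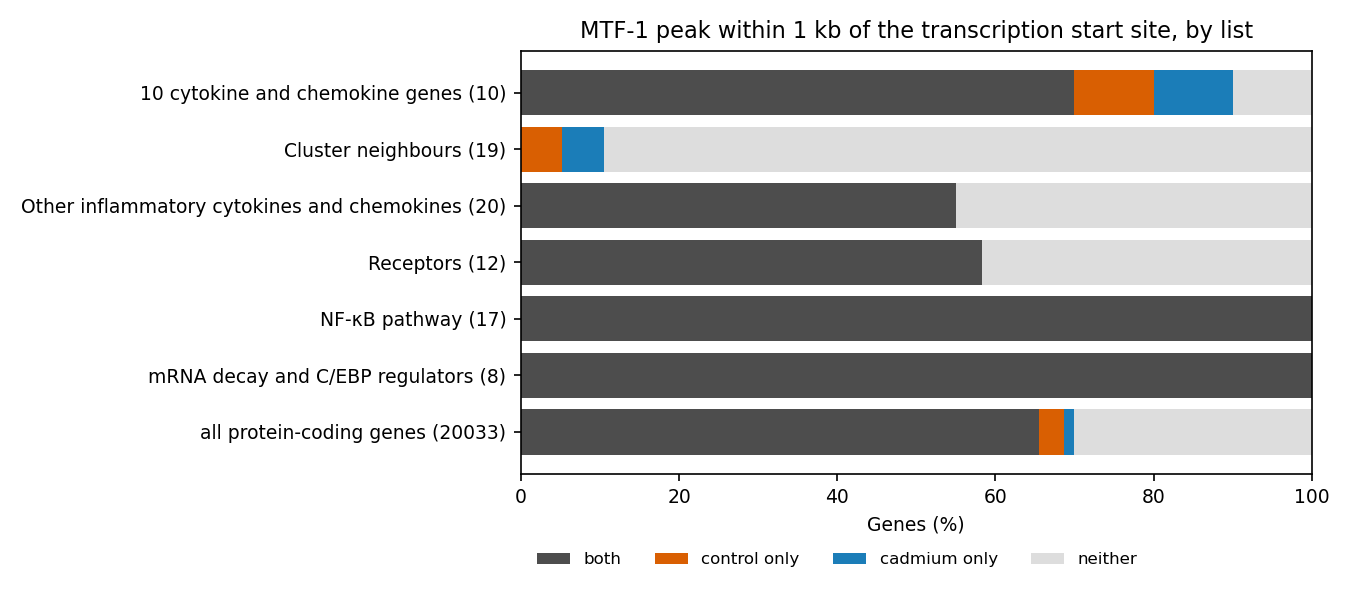
Share of genes, in percent, whose start site had an MTF-1 peak within 1 kb, split by the lists that held it (both, control alone, cadmium alone, neither), for the 10 cytokine and chemokine genes, the 5 fixed lists (number of genes in brackets) and all 20033 protein-coding genes. All 17 NF-κB pathway genes were bound in both lists and none of the 19 cluster neighbours, all of them cytokine or chemokine family genes, was.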

How the data were processed

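The authors trimmed the CUT&RUN reads, aligned them to hg38 with Bowtie2, merged biological replicates with SAMtools 1.8, and ran Epic2 at its defaults on each merged set to call peaks (the submitters' processing notes name SICER 0.0.50, the method Epic2 implements). The paper's methods name no control library for peak calling. The deposited positions, in base pairs, were used as they stand. All peaks lie on a grid of 200 bp and carry no count, signal or score, and their depth is unknown. With no expression values, the cell line could not be checked against marker genes.

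Genes, canonical transcript starts and neighbouring genes came from GENCODE 44 on GRCh38, and sequences from that genome (pysam 0.24.0) and the RefSeq promoter table. Peaks were shared when at least 1 base overlapped a peak of the other list, and otherwise lost (control) or gained (cadmium). The steps were tested on simulated peaks. The 10 genes, the gene lists and the motifs were chosen with earlier results of these data known. Of the lists, the genes named are those with a start-site peak in 1 list only and the 3 with the most control-only and the 3 with the most cadmium-only bases. Other neighbours in the chemokine and interleukin-1 clusters (among them CXCL6, PF4V1, CCL7 and IL1RN) are named for their position, after their values were seen. With 1 list per condition no p-value was computed.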

Additional observations from a re-analysis of the deposited data

How the results depend on the processing

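The ratio of covered bases ran from 0.662 without LIF to 0.837 with windows of 50 kb on either side. Leaving out LIF was an alternative added after seeing the data. Every value was below 1, as was the 0.697 of the complete lists. The values without LIF and with only peaks of at least 1000 bp (0.678) lay below 0.697, and the others above it. The 0.697 was taken over peaks of all widths. Windows of 10 kb held 23 cadmium peaks, and windows of 50 kb held 65 control peaks, with 12 lost peaks at 8 genes. Counting only peaks of at least 1000 bp in both lists left 18 cadmium peaks. It gave 11 lost peaks at 7 genes and 1 gained peak at 1 gene. Under this rule a peak also counted as lost or gained when its partner in the other list was narrower than 1000 bp. The 2 gained peaks described above, 599 bp at LIF and 399 bp at IL1B, were not kept. Lost peaks were then found at 49.0% and gained peaks at 21.4% of all genes. Start-site peaks were found at 7 of the 10 genes in control and 6 in cadmium. Requiring 50% of a peak to be covered by the other list gave 12 lost peaks. Among the 5334 protein-coding genes no longer than IL1A, the longest of the 10, 28.9% had a lost and 22.8% a gained peak, and 49.9% a start-site peak in both lists. The counts of peaks, lost peaks and genes with them therefore depend on the definition. Of 40 values, 26 were counted as unchanged, and these stayed within 1.5 times those reported. The shares of 49.0%, 21.4% and 22.8% also lay within 1.5 times but were counted as changed. No paired analysis was possible because peaks were called on merged replicates, and for the same reason no replicate could be left out.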
